A study of Mus musculus with 2 samples.

Results

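A set of 8 genes that carry, export, take up or esterify lipids is described here across the cell classes of the mouse hippocampus. They are the lipoprotein carriers Apoe, Clu and Apod, the exporters Abca1 and Abcg1, the receptors Lrp1 and Vldlr, and the esterifying enzyme Soat1. They were chosen by symbol for these roles, and all 8 were found among the 32285 genes of the deposited matrices. Hippocampal cells of 7-week-old mice were dissociated with papain and captured with the 10x Genomics 3' chemistry, which counts unique molecular identifiers (UMIs) near the 3' end of each transcript. The WT library came from C57BL6/J mice. The 60TM library came from mice of the line GFAP-hGFAP (60TM) on the C57BL6/J background, which carry a human transgene of GFAP, the intermediate filament gene of astrocytes, and serve as a model of Alexander disease. Each library pools 3 mice and is the only library of its genotype. No test between genotypes was therefore possible, and each interval below is a 95% interval that covers counting error only.

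In the brain, cholesterol and phospholipids do not arrive with plasma lipoproteins but move between cells on particles made locally. ABCA1 and ABCG1 load lipid onto apolipoproteins such as APOE and clusterin, and endocytic receptors, among them LRP1 and VLDLR, take the particles up. SOAT1 stores surplus cholesterol as esters, and Abca1, Abcg1 and Apoe are textbook targets of the liver X receptors (LXR), which sense oxysterols.

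After filtering, 6058 WT cells (57050779 UMIs, median 7213.5 per cell) and 7515 60TM cells (69955041 UMIs, median 7488) were kept, and 15 barcodes occurred in both libraries. The cells formed 31 clusters. All but 7 were named as astrocyte-like, microglia-like and so on from marker lists, giving 15 classes that are written below by the class name alone. At least 50 cells in each library were found for 12 classes, which ranged from 2046 WT and 2460 60TM microglia to 72 and 53 pericytes. Choroid plexus and ependymal cells, which line the ventricle, were captured beside the neurons and glia of the labelled hippocampus. Levels are given as CPM, the UMIs of a gene per 1000000 UMIs of the class in that library. Choroid plexus markers summed to 20.2 to 150 CPM in the other 11 classes of WT and to 184 to 742 CPM in those of 60TM. The Gfap row stood at 390.5 CPM in WT astrocytes and 1310 in 60TM astrocytes, and whether it also counts reads of the human transgene is not given by the labels or file headers.

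Levels are summed over the cells of a class. They are not per transcript length, so they are compared between classes and libraries and not between genes. Because free RNA in the cell suspension enters every droplet, each level is read beside the level that free RNA alone would give, estimated from marker genes that the class should lack. Apoe made up 4481 CPM of the whole WT library and 6874 CPM of the 60TM library, where it ranked 14th and 6th of all genes, so its free level is the highest of the 8. Where values are given in pairs, the WT library comes first. A member is called higher or lower at a ratio of 60TM to WT of 1.5 or more in either direction, in classes with at least 100 of its UMIs over both libraries. Of 96 pairs of gene and class, 62 reached that number, of which 12 were called higher, 6 lower and 44 neither. By the same rule, 1.3% (immature neurons) to 12.8% (pericytes) of all genes were called higher in a class. From 1.36% (committed oligodendrocyte precursors) to 6.67% (pericytes) were called lower. The counts pool classes with unlike shares, so the share of each class is given with its calls below.

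On GRCm38, Apoe lies at chr7:19696109-19699188, Abca1 at chr4:53030787-53159895, Apod at chr16:31296192-31314808, Lrp1 at chr10:127538161-127621148 and Soat1 at chr1:156424525-156474331, all on the minus strand. Clu at chr14:65968483-65981547, Abcg1 at chr17:31057675-31117988 and Vldlr at chr19:27216484-27254231 lie on the plus strand. All are protein coding in GENCODE M21, and none shares exons with another gene on its strand.

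**Figure D1:**
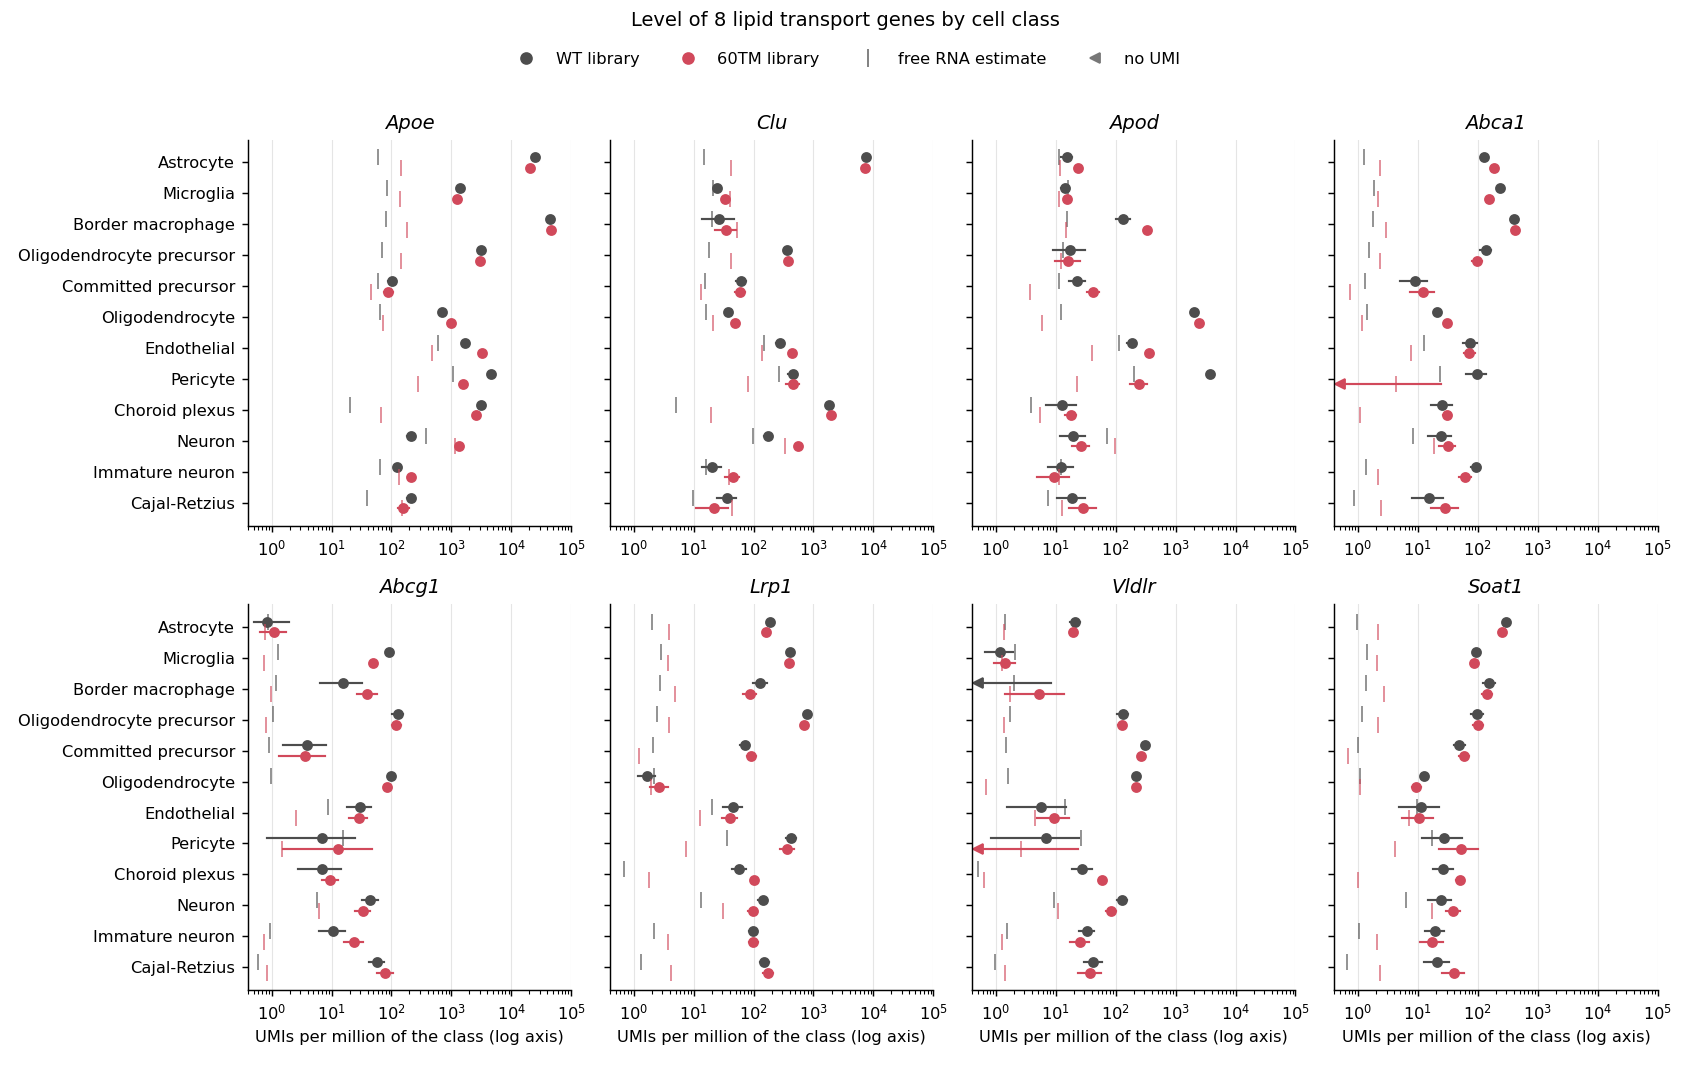
Level of each gene (CPM of the class, log axis) in 12 cell classes, with the WT library in grey and the 60TM library in red. Points are class levels, horizontal lines are 95% Poisson intervals for counting error, and short vertical ticks are the free RNA estimates; Apoe lay far to the right of its ticks in border macrophages and astrocytes, and close to them in neurons.

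The promoters of Abca1 and Apoe are shown because both genes are LXR targets whose levels are followed through the text. Of the 8 genes, 6 matched the RefSeq promoter table (GRCm38.p6), Clu and Abcg1 aside. Each line gives the 250 bases before the annotated start, 5' to 3' on the strand of the gene, and capitals mark matches to 6 letter patterns searched on both strands. These were the E-box CACGTG, the GC box GGGCGG, the TATA box TATAAA, the direct repeats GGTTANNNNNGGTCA and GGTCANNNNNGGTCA, and the sterol element core TCACCCCAC.
Abca1, chr4:53159896-53160145, minus strand: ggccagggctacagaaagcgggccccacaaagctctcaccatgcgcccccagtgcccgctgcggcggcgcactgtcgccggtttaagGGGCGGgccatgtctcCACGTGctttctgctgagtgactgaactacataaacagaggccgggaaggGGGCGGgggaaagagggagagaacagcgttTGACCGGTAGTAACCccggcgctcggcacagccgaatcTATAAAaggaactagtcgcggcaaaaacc
Apoe, chr7:19699189-19699438, minus strand: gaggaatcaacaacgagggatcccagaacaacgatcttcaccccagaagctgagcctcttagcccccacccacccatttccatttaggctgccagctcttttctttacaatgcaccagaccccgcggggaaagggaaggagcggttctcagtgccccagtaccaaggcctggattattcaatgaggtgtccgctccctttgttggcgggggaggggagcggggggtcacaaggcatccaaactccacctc
In the Abca1 window, the only match to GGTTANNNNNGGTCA, the type of direct repeat that LXR dimers bind, begins 67 bases before the start, on the opposite strand. That letter pattern was present in 15 of 32851 windows of the same length (0.0457%). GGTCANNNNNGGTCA was present in 21 windows (0.0639%) and TCACCCCAC in 0.496%. The Abca1 window also held CACGTG (6.02% of all windows), 2 copies of GGGCGG (32.7%) and TATAAA (12.4%), which begins 29 bases before the start. RefSeq gives 3 windows for Apoe. The one printed, before the most upstream start, held none of the 6 patterns, and a window further downstream held TATAAA on both strands, beginning 100 and 96 bases before its start. These are matches of letters and not measured binding.

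Apoe, the main apolipoprotein of brain lipoproteins, was highest in border macrophages, the Mrc1-expressing macrophages of the meninges and vessels. Its level there was 45097 CPM (44476 to 45725) in WT against 46691 CPM (46205 to 47182) in 60TM. Astrocytes followed with 24467 CPM (24342 to 24593) in WT against 20777 CPM (20705 to 20848) in 60TM. With 15.57% and 26.55% of the cells kept, astrocytes held 57% of all Apoe UMIs in kept WT cells and 67.2% in kept 60TM cells. Border macrophages held 7.86% and 7.22% of them with 1.3% and 1.66% of the cells kept.

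A wide gap separated these classes from the next. In WT, pericytes came next (4529 CPM), then oligodendrocyte precursor cells (OPCs, 3100) and choroid plexus cells (3071), whose intervals overlapped, endothelial cells (1705), microglia (1409) and oligodendrocytes (698). In 60TM, endothelial cells came next (3256 CPM), followed by OPCs (2951), choroid plexus cells (2573), pericytes (1574) and neurons (1366), whose intervals overlapped, then microglia (1238) and oligodendrocytes (998). Ependymal cells, with only 43 cells in 60TM and so outside this ranking, stood within that gap at 10013 and 9886 CPM. Unnamed clusters were not ranked either. Committed oligodendrocyte precursors, which lie between OPCs and oligodendrocytes in the lineage, had 104 and 89 CPM, below both of their neighbours in the lineage.

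The free RNA estimate for Apoe was 84.6 CPM in WT microglia and 136 CPM in 60TM microglia, and in astrocytes, border macrophages, OPCs and oligodendrocytes it lay between 58.7 and 181 CPM. It was larger in pericytes (1057.5 and 273 CPM) and endothelial cells (593 and 478 CPM). For OPCs, the source cell type that gave the highest estimate put it at 931 and 799.5 CPM, below the measured 3100 and 2951 CPM. By the same measure it was 2999 CPM in WT pericytes, against 4529 CPM measured. In endothelial cells it was 889 and 1262 CPM, against 1705 and 3256 CPM measured. Immature neurons, which should lack Apoe, measured 126 and 211 CPM, beside free estimates of 63.6 and 136 CPM from the median source gene and 164 and 296 CPM from the source cell type that gave the highest estimate. WT neurons lay at 210 CPM, below their free estimate of 384 CPM, so the Apoe of WT neurons is background by this measure. 60TM neurons lay at 1366 CPM against an estimate of 1156 CPM, or 1897 CPM from the source cell type that gave the highest estimate.

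Single cells spread very differently around these levels. After each cell was thinned to 2000 UMIs, the median border macrophage held 94 Apoe UMIs in WT and 90.5 in 60TM, and every one of the 67 and 104 cells deep enough held at least 10. The median astrocyte held 46 and 40, and the 10th and 90th percentiles were 24 and 77 in WT and 20 and 66 in 60TM. OPCs, with medians of 6 and 5, were also broadly positive, 90.1% of WT and 95.4% of 60TM cells having at least 1 Apoe UMI.

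In microglia, Apoe was concentrated in few cells. The median thinned microglia held 0 Apoe UMIs in both libraries, while the highest held 89 in WT and 141 in 60TM. The 202 of 2024 WT microglia with the most Apoe held 67.5% of the class's Apoe UMIs, and the 243 of 2434 60TM microglia held 71%. In astrocytes, by comparison, the highest-ranking 88 of 881 WT cells held 19.2%. At least 1 Apoe UMI was found in 46.9% (44.7 to 49.1) of thinned WT microglia and 48.7% of 60TM microglia, against 17.5% and 32.7% of immature neurons thinned alike (median depths 5648.5 and 6859.5 UMIs for microglia, 7971 and 7579 for immature neurons). Markers of border macrophages summed to 13.6 and 25.3 CPM in microglia against 15469 and 14397 CPM in border macrophages.

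**Figure D2:**
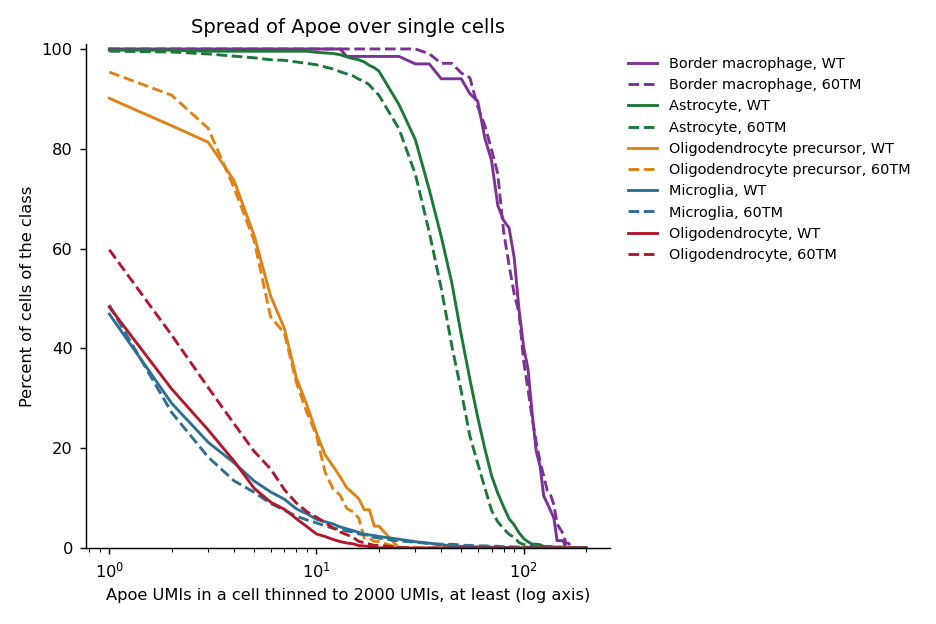
Percent of cells (y axis) with at least a given number of Apoe UMIs (x axis, log) after thinning each cell to 2000 UMIs, for 5 classes, with WT as solid and 60TM as dashed lines. Border macrophages and astrocytes carry Apoe in nearly every cell, while only 5.78% of WT and 5.05% of 60TM microglia held 10 or more UMIs.

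Between the libraries, Apoe in astrocytes was lower in 60TM by a small margin, at a ratio of 0.849 (0.844 to 0.854). Neither this nor the ratios in border macrophages (1.04), OPCs (0.952), choroid plexus cells (0.838), microglia (0.878) or oligodendrocytes (1.43) reached the 1.5-fold call. Astrocytes are a class in which many genes differed: of the 10589 genes reaching 100 UMIs, 7.34% were called higher in 60TM by the same rule and 6.97% lower. Of the 7 members with enough UMIs in astrocytes, 1 was called higher and none lower, and their median log2 ratio was -0.09 against -0.06 over all genes tested. The called gene was Apod, at 15.4 and 23.5 CPM against free estimates of 11.1 and 11.9 CPM. In thinned 60TM astrocytes a single cell held 22 Apod UMIs, while no WT astrocyte held more than 1. The call was lost in 6 of 11 alternative settings.

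Within astrocytes, the level depended on the cluster. The largest cluster, led by Cldn10 and Hsd11b1, had 25793 CPM of Apoe in 675 WT cells and 22252 CPM in 1002 60TM cells, giving a ratio of 0.863. The Slc6a11-led cluster had 19545 and 19266 CPM, giving a ratio of 0.986 (0.969 to 1.003). The Mt1-led cluster, with Aldh1a1 and Gfap also among its leading genes and whose median depth of 1441 UMIs is far below the others, had 19283 and 14841 CPM. The cluster led by Lcn2, C3 and Cxcl5 was 97.7% 60TM cells. Its 549 60TM cells had 21071 CPM, close to the other 60TM astrocytes, at a Gfap level of 2007 CPM.

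A small cluster of 35 cells, all from 60TM and led by Ccl2, Gadd45b, Cxcl10, Gdf15 and Chac1, stood apart. It carried 1947 CPM of Apoe and 2370 CPM of Clu, with a median depth of 12387 UMIs and Gfap at 3019 CPM. Its astrocyte markers were also low, summing to 4181 CPM against 11921 CPM in the Lcn2-led cluster and 17980 CPM in the Cldn10-led 60TM cells, and it met the naming rule with 3 markers. In the same cells Abca1 reached 499 CPM, the highest value of any astrocyte cluster, and Vldlr 141 CPM against 14.5 to 25.9 in the other 60TM astrocyte clusters. Its immediate early genes, which respond to tissue handling, summed to 5901 CPM, and their part in these values was not tested.

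**Figure D3:**
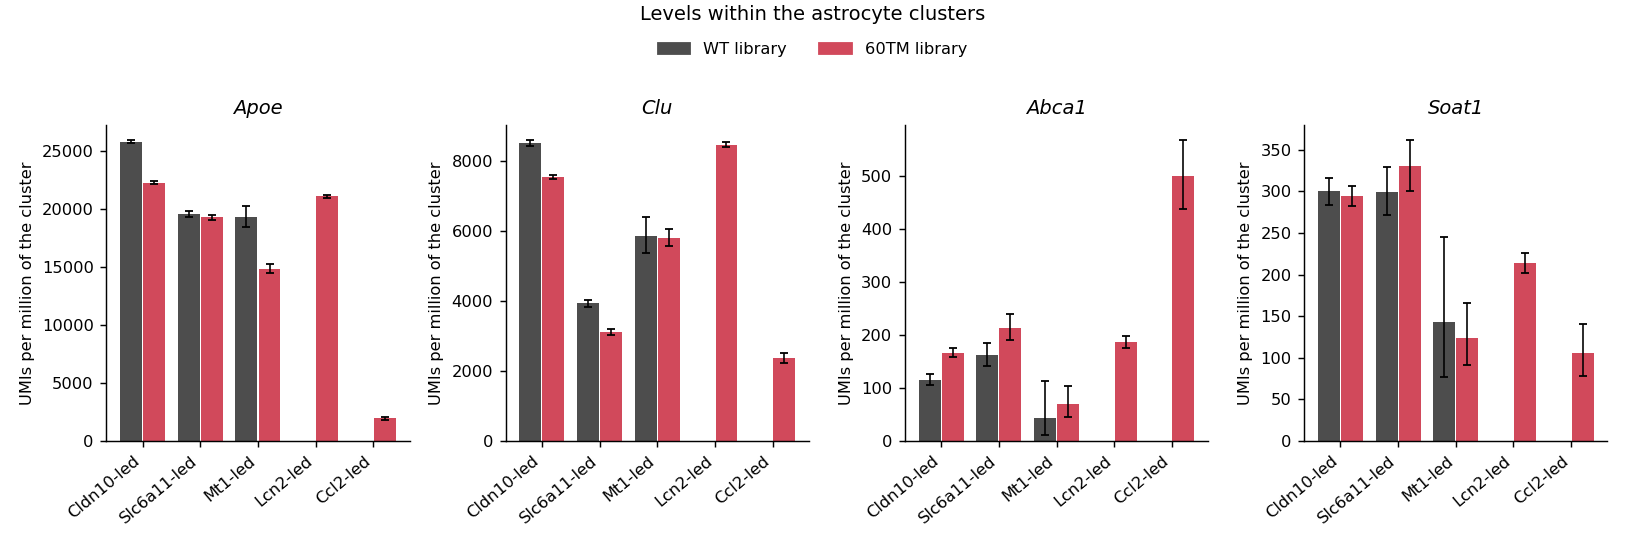
Levels of Apoe, Clu, Abca1 and Soat1 (CPM of the cluster) in 5 astrocyte clusters, with WT bars in grey, 60TM bars in red and 95% Poisson intervals for counting error. The Lcn2-led and Ccl2-led clusters have no WT bar because 13 and 0 WT cells fell into them; the Ccl2-led cluster had the lowest Apoe (1947) and the highest Abca1 (499).

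Microglial clusters did not share one direction for Apoe. The P2ry12-led cluster, with the homeostatic genes Gpr34 and Tmem119 also in the lead, had 934 CPM in 1087 WT cells and 1064 CPM in 778 60TM cells, giving a ratio of 1.14 (1.095 to 1.19). The Rgs1-led cluster had 1404 CPM in WT and 859 in 60TM (0.611), and the Ccl4-led cluster 2537 and 1808 CPM (0.713). The interferon-gene cluster led by Ifi204 and Ifit2 had 2772 CPM in only 20 WT cells and 868 CPM in 261 60TM cells (0.313). Immediate early genes summed to 2376 and 2315 CPM in the P2ry12-led cluster, 16139 and 16455 CPM in the Rgs1-led cluster and 29298 and 28985 CPM in the Ccl4-led cluster. The Ccl4-led cluster held 12.7% of WT and 28.5% of 60TM microglia. In WT, Apoe and the immediate early genes ran in the same order over these 3 clusters, whereas in 60TM the Rgs1-led cluster had the lowest Apoe. The part of tissue handling in these values was not tested.

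Oligodendrocytes, the myelinating cells, differed most between the libraries in 1 of their 3 clusters. In the Hapln2-led cluster Apoe stood at 843 CPM in 569 WT cells and 1725 CPM in 303 60TM cells, giving a ratio of 2.05 (1.98 to 2.11). In the Il33-led cluster it stood at 858 and 950 CPM (1.11), and in the Tac1-led cluster at 134 and 137 CPM (1.02). The sum of astrocyte markers in the Hapln2-led cluster was 138 CPM in WT against 206 CPM in 60TM, and Clu, an astrocyte-rich transcript, was at 38.5 and 52.3 CPM. Over the class, the free estimate for Apoe was 65.3 and 71.7 CPM.

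Apoe was called higher in endothelial cells, neurons and immature neurons and lower in pericytes. In endothelial cells it was 1705 CPM (1610 to 1804) in WT against 3256 CPM (3158 to 3357) in 60TM, giving a ratio of 1.91 (1.79 to 2.04), which held the call in all 12 alternative settings. Of the 4 members tested in endothelial cells, Apoe, Clu (277 and 437 CPM, 1.58) and Apod (184 and 355 CPM, 1.93) were called higher, beside 4.6% of all genes higher and 4.24% lower. The free RNA share of this class was estimated at 13.2% in WT and 6.95% in 60TM, astrocyte markers summed to 1112 and 1636.5 CPM, and oligodendrocyte markers to 535 and 1217 CPM. Border macrophage markers summed to 2.84 and 44.1 CPM in endothelial cells, and microglial markers to 929 and 273 CPM. Subtracting the free level gave an Apoe ratio of 2.50. Endothelial Clu lost its call under other quality limits (a minimum of 200 genes and a mitochondrial limit of 5%, 1.27) and by marker score, with each cell assigned to its highest-scoring class (1.115), and Apod with doublets left in (1.13) and as a mean over cells (1.22). The part of RNA from these other cell types in the endothelial values was not tested.

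Neurons had 210 CPM of Apoe in WT and 1366 CPM in 60TM, giving a ratio of 6.49 (5.60 to 7.57), and Clu was called higher too (175 and 549 CPM, 3.14). These 2 of 4 tested members stood beside 4.73% of all genes higher, and Vldlr (129 and 84.2 CPM, 0.653) beside 4.96% lower. Of 89 thinned 60TM neurons, 10 held at least 10 Apoe UMIs, and the 9 with the most held 80.1% of the class's Apoe UMIs. Astrocyte markers in neurons summed to 783 and 1490 CPM, with none of the 7 at 0, and the free share was 8.56% and 16.8%. Without the 10% of neurons richest in astrocyte markers in each library, the Apoe ratio was 2.14 and the Clu ratio 0.872. Over the 11 alternative settings that gave a ratio, the Apoe ratio ran from 2.14 to 8.47 and kept its call. Subtracting the free level gave no ratio, because WT neurons lay below their free estimate of 384 CPM. Immature neurons had 1 of 3 tested members called higher, Apoe at a ratio of 1.67, beside 1.3% of all genes higher and 1.65% lower, and with the free level subtracted the ratio was 1.2, below the call.

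In pericytes, Apoe was 4529 CPM in WT against 1574 CPM in 60TM (0.348), and Apod was 3684 and 245 CPM (0.0666). Both were called lower, among 4 tested members, beside 6.67% of all genes lower and 12.8% higher. Fibroblast markers summed to 2733 CPM in WT pericytes and 561 CPM in 60TM pericytes, with 0 and 2 of the 6 markers at 0. Among pericytes with no UMI of a fibroblast marker, the ratios were 2.835 for Apoe and 1.81 for Apod, so both directions turned. The free RNA share was estimated at 23.6% in WT pericytes and 3.97% in 60TM pericytes.

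**Figure D4:**
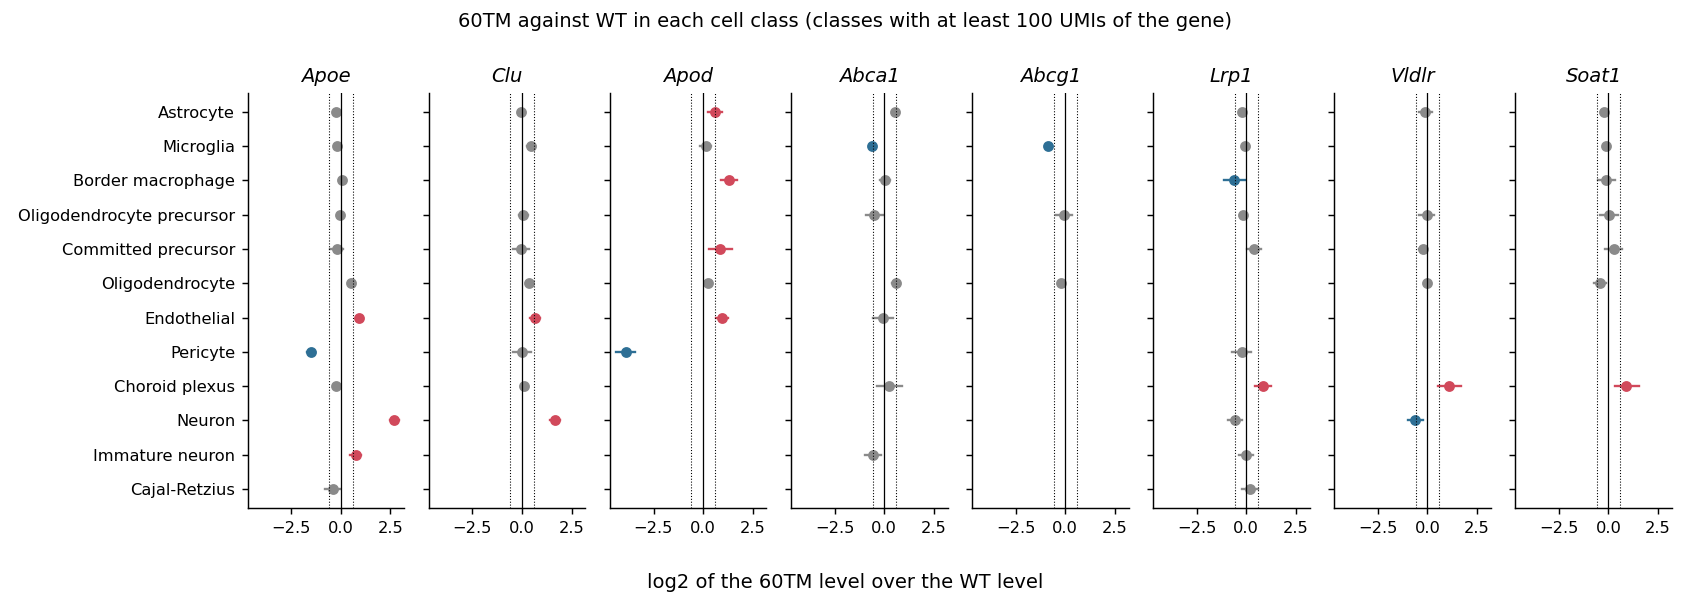
The log2 ratio of the 60TM level to the WT level for each gene and class with at least 100 UMIs, with 95% counting intervals as horizontal lines and dotted lines at 1.5-fold. Red points were called higher (12), blue points lower (6) and grey points neither (44). Over all genes, the share called in a class ran from 1.3% to 12.8% higher and from 1.36% to 6.67% lower. Abca1 and Abcg1 were called lower in microglia, and Apoe, Clu and Apod higher in endothelial cells.

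Clu, which encodes clusterin, a chaperone and apolipoprotein, was foremost an astrocyte gene. Its level in astrocytes was 7436 CPM (7367 to 7505) in WT against 7312 CPM (7270 to 7354) in 60TM, giving a ratio of 0.983 (0.973 to 0.994). Astrocytes held 69.3% of the Clu UMIs in the kept WT cells and 80.6% of those in the kept 60TM cells. As given above, their share of the cells kept was 15.57% and 26.55%. Ependymal cells had 4887 and 4088 CPM, and choroid plexus cells 1797 and 1945 CPM. OPCs had 362 and 376 CPM, beside free estimates of 17.7 and 42.5 CPM. The source cell type that gave the highest estimate put these at 233 and 232 CPM.

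Unlike Apoe, Clu lay at or near its free level in the myeloid classes. It was at 24.2 and 33.4 CPM in microglia, against free estimates of 21.2 and 39.6 CPM, and at 26.9 and 34.5 CPM in border macrophages, against 20.3 and 52.7 CPM. Within astrocytes Clu also varied by cluster. In WT it stood at 8522 CPM in the Cldn10-led and 3936 CPM in the Slc6a11-led cluster. The corresponding 60TM values were 7550 and 3110 CPM (ratios of 0.886 and 0.790), while the Lcn2-led 60TM cluster had 8469 CPM. The class ratio near 1 thus pooled lower 60TM levels in both of these clusters with the level of the Lcn2-led cells. It also pooled unlike shares, since the Slc6a11-led cluster held 21.5% of WT and 9.57% of 60TM astrocytes.

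Apod, a lipocalin that binds small lipids and is known from myelinating cells, had most of its UMIs in oligodendrocytes. Their level was the highest in 60TM, but in WT the pericytes described above stood higher, at 3684 CPM (3468 to 3910.5). Of 55 thinned WT pericytes, the 6 with the most Apod held 91.4% of its UMIs in the class. In oligodendrocytes Apod measured 2035 CPM (2017 to 2054) in WT against 2424 CPM (2398 to 2450) in 60TM, giving a ratio of 1.19. Oligodendrocytes held 95.7% and 93.4% of the Apod UMIs in the kept cells. Their share of the cells kept was 22.7% in WT and 9.89% in 60TM, and the whole-library level was 850 and 570 CPM. The whole-library level was thus lower in 60TM while the level within oligodendrocytes was not.

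Earlier stages of the lineage had little Apod. OPCs (17.5 and 16.1 CPM) were at their free estimates (13.4 and 12.1 CPM), and committed precursors had 22.7 and 41.8 CPM. Among oligodendrocyte clusters, the Tac1-led one had the lowest Apod (422 and 366 CPM), the Il33-led one 1733 and 1717 CPM, and the Hapln2-led one 3397 and 4924 CPM. Apod is among the 10 leading genes of the Hapln2-led cluster although it was left out when cells were clustered. The ratio was 1.45 (1.42 to 1.48) in that cluster, 0.991 in the Il33-led and 0.867 in the Tac1-led one. Of thinned oligodendrocytes, 9.01% (7.55 to 10.6) in WT and 19.1% (16.3 to 22.1) in 60TM held 10 or more Apod UMIs.

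Of the 7 members tested in oligodendrocytes none was called, beside 2.43% of all genes higher and 2.03% lower, and the members' median log2 ratio was 0.25 against -0.005 over all genes. In committed precursors 1 of 6 tested members was called, Apod as higher (1.84, 1.23 to 2.78), beside 2.38% of all genes higher and 1.36% lower. With doublets left in, that ratio was 0.576, and by marker score it was 1.204. In border macrophages Apod was at 135 CPM (103 to 173) in WT against 333 CPM (293 to 377) in 60TM, giving a ratio of 2.47 (1.86 to 3.33) that held the call in all 12 alternative settings, against free estimates of 15.4 and 15 CPM. This was 1 of 5 tested members, beside 5.93% of all genes higher. After thinning, the median border macrophage held 0 Apod UMIs in both libraries. The 7 of 67 WT cells with the most Apod held 82.35% of 17 UMIs, and the 10 of 104 60TM cells held 59.3% of 59. Fibroblast markers in border macrophages summed to 53.8 and 76.9 CPM, and their part was not tested.

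**Figure D5:**
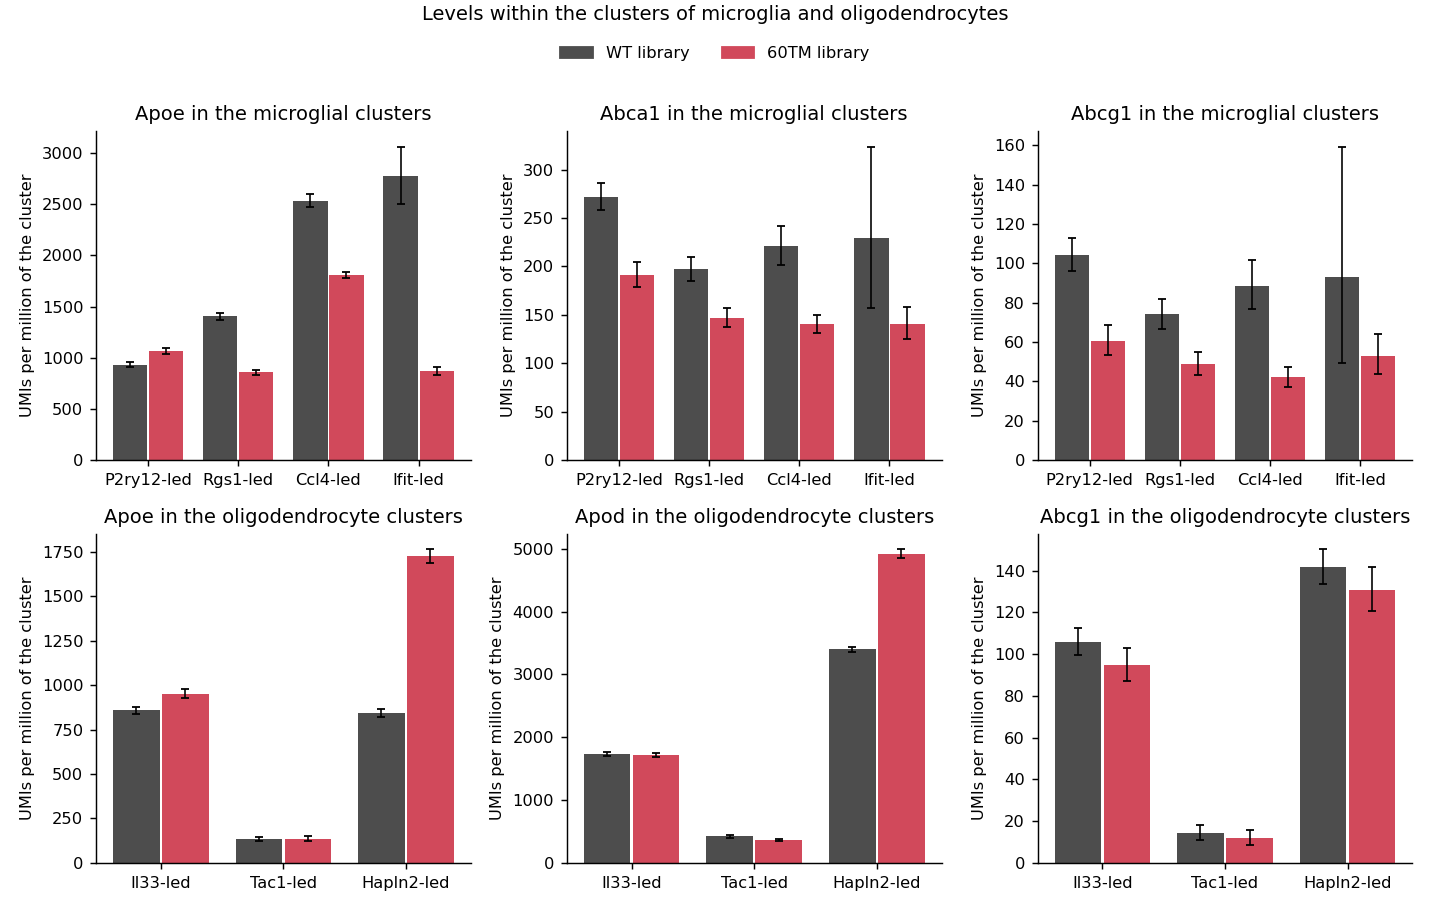
Levels (CPM of the cluster) of Apoe, Abca1 and Abcg1 in 4 microglial clusters and of Apoe, Apod and Abcg1 in 3 oligodendrocyte clusters, with WT bars in grey, 60TM bars in red and 95% Poisson intervals for counting error. Abca1 and Abcg1 are lower in 60TM in each microglial cluster, though in the interferon-gene cluster the interval of the Abcg1 ratio included 1. Apoe and Apod are higher in 60TM in the Hapln2-led cluster.

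Abca1, which moves cholesterol and phospholipid onto lipid-poor apolipoproteins, was lower in 60TM microglia. Its level was 234 CPM (226 to 242) in WT against 154 CPM (149 to 160) in 60TM, giving a ratio of 0.661 (0.627 to 0.695). All 4 microglial clusters had the lower value in 60TM, with ratios of 0.705 in the P2ry12-led, 0.745 in the Rgs1-led, 0.636 in the Ccl4-led and 0.615 in the interferon-gene cluster. A UMI of Abca1 was found in 36% of thinned WT microglia and 25.6% of 60TM microglia, against 4.49% and 3.85% of committed precursors (median depths 20554 and 20754 UMIs), where Abca1 was lowest in WT. A higher share in WT microglia than in the lowest class was fixed by that choice. The value lies close to the 1.5-fold limit, and with cells thinned, with TMM scaling or with microglial clusters weighted alike it fell just short of it (ratios up to 0.692).

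Abcg1, which exports cholesterol to particles that already hold lipid, was lower still. It stood at 89.8 CPM (84.7 to 95.1) in WT microglia and 49.7 CPM (46.5 to 53.0) in 60TM microglia, giving a ratio of 0.553 (0.507 to 0.604). The ratios in the 4 clusters were 0.582, 0.656, 0.476 and 0.571 in the same order. The last, with only 20 WT cells, had an interval of 0.320 to 1.106, which included 1. The call for the class held in all 13 alternative settings, with ratios from 0.542 to 0.626. The share of thinned microglia with a UMI was 14.4% in WT and 9.33% in 60TM, against 0 of 881 WT astrocytes (an exact 95% upper bound of 0.418%) and 0.166% of 60TM astrocytes. Astrocytes had the lowest Abcg1 in both libraries, so a higher share in microglia was fixed by that choice. Abca1 and Abcg1 were the 2 of 7 tested members called lower in microglia, beside 2.2% of all genes lower and 2.45% higher. The members' median log2 ratio there was -0.13 against -0.05 over all genes. Immediate early genes summed to 12312 CPM in WT against 16854 CPM in 60TM microglia. In the P2ry12-led cluster, where that sum was 2376 and 2315 CPM, the ratios were the 0.705 and 0.582 given above, and the part of tissue handling in the class ratios was not tested.

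In astrocytes the order of the libraries was the opposite for Abca1. It stood at 125 CPM (116 to 134) in WT against 186 CPM (179 to 193) in 60TM, giving a ratio of 1.49 (1.37 to 1.62), just under the 1.5-fold call. The shared clusters gave 115 and 166 CPM in the Cldn10-led one (1.44, 1.301 to 1.604) and 163 and 214 CPM in the Slc6a11-led one (1.31, 1.101 to 1.57). Without the clusters of 60TM cells the class ratio was 1.35. Abcg1 was not detectable above background in astrocytes, with 0.838 and 1.08 CPM against free estimates of 0.871 and 0.783 CPM. Whether the opposite directions of Abca1 in astrocytes and microglia differ beyond the spread between mice was not tested. Immediate early genes in astrocytes summed to 628 CPM in WT against 2027 CPM in 60TM.

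Elsewhere, Abca1 was highest in border macrophages, at 408 and 423 CPM (1.04, 0.861 to 1.25). It was at 137 and 97.6 CPM in OPCs and at 91.9 and 61.8 CPM in immature neurons, where the ratio of 0.673 came just short of the call. In oligodendrocytes it was at 20.5 and 30.8 CPM (1.497, 1.31 to 1.71). Abcg1 was highest in OPCs, at 128 and 121 CPM, and next in oligodendrocytes, at 98.8 and 85.6 CPM. The intervals of these classes overlapped in WT and not in 60TM. Between these stages, committed precursors had 3.88 and 3.58 CPM. Within oligodendrocytes it followed Apod across clusters, lowest in the Tac1-led (14.2 and 11.7 CPM) and highest in the Hapln2-led one (142 and 131 CPM).

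Lrp1, a large endocytic receptor for APOE-bearing particles, was highest in OPCs, at 767 CPM (703 to 835) in WT against 682 CPM (635 to 730) in 60TM. Pericytes (423 and 361 CPM) and microglia (402 and 391 CPM) followed with intervals that overlapped in both libraries, and astrocytes had 191 and 164 CPM. The microglial ratio was 0.973 (0.938 to 1.008). In oligodendrocytes Lrp1 was at 1.69 and 2.67 CPM, against free estimates of 2.21 and 1.93 CPM. Lrp1, highest in OPCs, was thus not detectable above background in their mature progeny.

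Vldlr, a receptor for APOE and reelin, had another order within the lineage. It was highest in committed precursors (308 and 266 CPM), then oligodendrocytes (220 CPM, 214 to 226, and 216 CPM, 209 to 224) and OPCs (131 and 128 CPM). Oligodendrocytes held 80.1% and 66.3% of the Vldlr UMIs in the kept cells, and their ratio was 0.981 (0.938 to 1.03). Astrocytes had 21 and 19.7 CPM. Microglia (15 and 26 UMIs in all, 1.15 and 1.40 CPM) were at their free level, and WT border macrophages had no Vldlr UMI, which allows a level of up to 6.73 CPM at a floor of 3 UMIs. No member was called in OPCs, where 7 were tested, beside 1.73% of all genes higher and 1.77% lower.

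The receptors were called in 3 classes. In choroid plexus cells, Lrp1 was at 58.1 and 103 CPM (1.77, 1.35 to 2.36), Vldlr at 27.6 and 58.8 CPM (2.13, 1.44 to 3.27) and Soat1 at 26.6 and 50.1 CPM (1.88, 1.26 to 2.92). These 3 of 6 tested members were called higher in a class of 61 WT and 242 60TM cells, where 12.3% of all genes were higher and 2.41% lower. Lrp1 kept its call in all 12 alternative settings. Vldlr lost it under the other quality limits (1.44) and as a mean over cells (1.24), and Soat1 with doublets left in (1.43) and as a mean over cells (1.26). In border macrophages, Lrp1 was the 1 member called lower (130 and 86.2 CPM, 0.662, 0.458 to 0.961), beside 4.62% of all genes. That call was lost under the other quality limits (0.782), with doublets left in (0.8305) and by marker score (0.753). Microglial markers summed to 3918 CPM in WT against 2138 CPM in 60TM border macrophages, and their part in the Lrp1 value was not tested. The third is Vldlr in neurons, given above, whose call was lost in 6 of 12 alternative settings and whose direction turned after thinning (1.53). The thinned ratio rested on only 7 UMIs in 56 WT cells and 17 UMIs in 89 60TM cells.

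Soat1, the endoplasmic reticulum enzyme that esterifies cholesterol, was highest in astrocytes, at 296 CPM (282 to 310) in WT against 258 CPM (250 to 266) in 60TM, giving a ratio of 0.871 (0.823 to 0.922). The Cldn10-led and Slc6a11-led clusters gave ratios of 0.981 and 1.103, and the Lcn2-led 60TM cluster had 214 CPM. Border macrophages (155 and 145 CPM), OPCs (97.5 and 100 CPM) and microglia (94.1 and 85.8 CPM) followed. Oligodendrocytes had 12.7 and 9.46 CPM, above free estimates of 1.07 CPM in both.

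Other genes of the pathway were taken from 5 lists. Of the 10 other apolipoproteins, 1 had enough UMIs in astrocytes and none in microglia. Among 18 other lipoprotein receptors and partners, 14 were tested in astrocytes, with a median log2 ratio of -0.23 against -0.06 over all genes tested. Lrp5, a Wnt co-receptor, was called lower at 13.1 and 8.56 CPM (0.655). So was Scarb1, an HDL receptor, at 8.22 and 5.33 CPM (0.649), which the rule for named genes did not select. Lrp2, the large epithelial receptor megalin, had no UMI in WT astrocytes and 130 in 60TM (8.25 CPM), a level at least 16.4-fold higher when WT is set to the floor of 3 UMIs. Of these 130, 96 lay in the Lcn2-led and 30 in the Ccl2-led cluster.

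Among 16 other exporters and transfer proteins, 13 were tested in astrocytes, of which 1 was higher and 2 lower, beside 7.34% and 6.97% of all genes. Lcat, which esterifies cholesterol on the particles themselves, was at 435 and 283 CPM (0.650), Abca8a at 9.39 and 5.08 CPM (0.541) and Abca8b at 5.53 and 9.52 CPM (1.72). In microglia, 11 were tested and 2 were lower, beside 2.2% of all genes. Lpl, which releases fatty acids from lipoproteins and marks lipid-associated microglia, was at 77.8 and 29.3 CPM (0.377, 0.339 to 0.419). It was at 262 and 42.8 CPM in the Ccl4-led cluster, 45.7 and 15.2 CPM in the Rgs1-led one and 33.5 and 28.1 CPM in the P2ry12-led one. Pltp, a phospholipid transfer protein, was at 5.31 and 3.13 CPM (0.589), against free estimates of 3.53 and 3.26 CPM.

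Of 14 genes of esterification, lipid droplets and oxysterols, 9 were tested in astrocytes, and 2 were lower, beside 6.97% of all genes. These were Cyp46a1, which makes 24-hydroxycholesterol and is known mainly from neurons (39.1 and 19.9 CPM, 0.508), and Hilpda, a lipid droplet protein (10.1 and 6.22 CPM, 0.618). None of 9 was called in microglia, beside 2.2% of all genes lower and 2.45% higher. Of 12 LXR, RXR and SREBP regulators, 1 of 10 tested was called in astrocytes, Insig1, which retains SREBP in the endoplasmic reticulum, at 226 and 111 CPM (0.492, 0.458 to 0.529), again beside 6.97% of all genes lower. None of 9 was called in microglia, beside 2.2% of all genes lower and 2.45% higher. Their median log2 ratio there was -0.17 against -0.05 over all genes.

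For each member, the genes with the most similar levels were sought among 9708 candidates over the 26 pairs of class and library with at least 50 cells, by Pearson correlation of log2(CPM + 1). The pairs share libraries, depth and free RNA, so the values are descriptions. Apoe was most like Sdc4 (0.927) and Vcam1 (0.882), Clu most like Mt3 (0.918) and Adhfe1 (0.889), and Apod most like Pde8a (0.853) and 2700046A07Rik (0.820). Abca1 was most like Cables1 (0.795) and Ppp1r15a (0.776), and Abcg1 most like Ppp2r5c (0.758) and Retreg1 (0.752). Lrp1 was most like Ccdc107 (0.818) and Sfxn1 (0.815), Vldlr most like Tarsl2 (0.907) and Brdt (0.891), and Soat1 most like Tmem176a (0.816) and Vegfb (0.798). Among the members themselves, Apoe correlated most with Soat1 (0.605) and Abca1 (0.587) and least with Vldlr (-0.391).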

How the data were processed

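The deposited matrices hold raw UMI counts per gene and barcode, written by the authors with Cell Ranger 5.0.0 per the file headers, on GRCm38 per the submitters' processing notes. The deposited gene and barcode lists hold names only (unit: other). The WT file held 6861 barcodes and the 60TM file 8733. Barcodes with fewer than 500 genes or over 15% mitochondrial UMIs were removed, and the highest Scrublet scores (377 and 610 barcodes) were dropped as doublets. Cells of both libraries were clustered together with scanpy 1.11.5 (2000 variable genes without the members and pathway genes, 30 principal components, 15 neighbours, Leiden resolution 1). A cluster was named from 3 or more of its class markers, each at least 1 log2 unit above the other cells and found in at least 20% of cells. Raw counts were summed per class and library. Levels have exact Poisson intervals, ratios exact conditional binomial intervals and shares Clopper-Pearson intervals, and all cover counting error only. The free RNA level is the median ratio of class to library CPM, over markers the class should lack, times the library profile. The scripts were tested on simulated data. Named genes are the 8 members, up to 2 highest and 2 lowest called genes of each list in astrocytes and microglia, and the 2 genes most like each member. Scaling by TMM used edgeR 4.0.16. The members, the lists and the naming rule were chosen with earlier results of these data known. Gene positions are from GENCODE M21, which may not be the release the counts used, and promoters from the RefSeq table. One item of the receptor list is not reported here, nor are the calls counted over that list.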

Additional observations from a re-analysis of the deposited data

Results flagged for a closer look

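For 4 members, some classes were called higher in 60TM and others lower. None of these differences between classes was tested, since each genotype has 1 library. Apoe was called higher in immature neurons (1.67, but 1.2 with free RNA subtracted), endothelial cells (1.91) and neurons (6.49). The neuron ratio could not be formed with free RNA subtracted. Apoe was called lower in pericytes (0.348). The pericyte direction turned in 4 settings, with ratios from 1.08 to 2.94. Apod was called higher in astrocytes (1.52, lost in 6 of 11 settings), endothelial cells (1.93), border macrophages (2.47) and committed oligodendrocyte precursors (1.84, but 0.576 with doublets left in). It was called lower in pericytes (0.0666), where the direction turned in 3 settings with ratios of 1.61, 2.01 and 1.81. Lrp1 was called higher in choroid plexus cells (1.77) and lower in border macrophages (0.662, lost in 3 of 12 settings). Vldlr was called higher in choroid plexus cells (2.13) and lower in neurons (0.653, lost in 6 of 12 settings). The neuron ratio was 1.53 after thinning, on only 7 WT and 17 60TM UMIs.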

How the results depend on the processing

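No paired analysis was possible because each genotype has 1 library, and no replicate could be left out for the same reason. Over 62 ratios and 804 alternative values, 647 moved by less than the counting interval, 147 moved further and 10, in 5 ratios, changed direction. The total called higher was 12, and 20 both with no doublets removed and with a minimum of 20 UMIs. The total called lower was 6, and 3 with each cell assigned by its highest marker score. In astrocytes 1 member was called higher, 2 under the other quality limits (200 genes, 5% mitochondrial UMIs) and under TMM, and 0 with no doublets removed, by marker score, with unnamed clusters added, after thinning, with members in the clustering and at resolution 0.5. In microglia 0 were called higher, and 1 (Clu, at its free level) with clusters weighted alike, which was chosen after seeing the data; 2 were lower, and 1 after thinning, under TMM and with clusters weighted alike. Abcg1 in microglia was 0.626 after thinning (calls there needed 20 UMIs). Apoe in astrocytes was 0.822 under the other quality limits, 0.874 by marker score, 0.871 with unnamed clusters, 0.888 without clusters of 60TM cells, 0.867 after thinning, 0.88 under TMM, 0.864 with members in the clustering and 0.864 at resolution 0.5. Abca1 in astrocytes was 1.35 without clusters of 60TM cells, 1.35 after thinning and 1.36 as a mean over cells. Apoe in endothelial cells was 1.61 under the other quality limits, 2.25 with doublets, 1.575 by marker score, 1.67 at resolution 0.5, 2.50 with free RNA subtracted and 2.39 without the 10% of cells richest in astrocyte markers. These directions reversed: Clu in neurons (0.872 without those 10%), Vldlr in neurons (1.53 after thinning), Apod in committed precursors (0.576 with doublets), Apoe in pericytes (2.94 under the other quality limits, 2.20 with doublets, 1.08 by marker score, 2.835 without fibroblast marker UMIs) and Apod in pericytes (1.61 under the other quality limits, 2.01 by marker score, 1.81 without fibroblast marker UMIs). The 10% and the fibroblast settings were also added after seeing the data, and the cause of these changes was not tested. The thinned Vldlr ratio in neurons rested on only 7 WT and 17 60TM UMIs. The smallest class, pericytes, had 293415 and 154977 UMIs in all.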
